A study of Mus musculus with 3 samples.

Results

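Bcl2, Bcl3, Pim1 and Myc are genes of cell survival and growth that lie downstream of cytokine signals in T cells. They were described here through the aligned reads of 3 ChIP-seq libraries (chromatin immunoprecipitation followed by sequencing) in 4 stated windows of the mouse genome, build mm9. The windows were chr1:108420000-108630000 for Bcl2, chr7:20380000-20425000 for Bcl3, chr17:29610000-29650000 for Pim1 and chr15:61795000-61840000 for Myc. The start site of Pim1 was stated as near 29627700 and that of Myc as near 61816800, and none was stated for the others. The windows held 2963 of 12281399 wild-type H3K4me3 reads, 3269 of 12075963 STAT3-deficient H3K4me3 reads and 4270 of 10127075 wild-type phospho-STAT3 reads. In them lay 8 of the 10971 marked H3K4me3 regions of the genome and 22 of its 27061 phospho-STAT3 sites, both defined where they are first used.

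All cells were mouse CD4+ T cells sorted as naive (CD44- and CD62L+) and polarized in culture to Th17 cells, the IL-17-producing helper cells. For 72 h they received plate-bound anti-CD3, anti-CD28, 10 ng/ml of IL-6 and 2.5 ng/ml of TGF-b. IL-2, IL-4 and IFN-g were blocked, and IL-6 was given again for 1 h before chromatin was made, so both genotypes had been exposed to IL-6 shortly before. The strain of the wild-type cells is given as Stat3fl/fl FoxP3-GFP, and the STAT3-deficient cells carried CD4-Cre in addition. The control cells thus also carried the loxP-flanked Stat3 allele and the FoxP3-GFP reporter, but no Cre. Cre driven from Cd4 sequences acts during T cell development, before the cells were sorted and cultured. H3K4me3 was sequenced from both genotypes and phospho-STAT3 from wild-type cells, the latter with an antibody to Phospho-STAT3(Ser727), and every group had 1 library. The sources used here do not give the age or number of the mice. There is thus no replicate check of any genotype difference, and the intervals below cover counting error only. Stat3 itself and the defining markers of T cells were not placed on mm9 here, so neither the deletion nor the cell type was checked on the reads. Neither an input library nor phospho-STAT3 reads from STAT3-deficient cells were analysed here.

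STAT3 is a transcription factor that IL-6 activates through JAK kinases, which phosphorylate it on a tyrosine distinct from the serine recognised by the antibody used here. Its dimers bind the palindromic element TTCNNNGAA and act on genes at promoters and at distant elements. H3K4me3, trimethylated lysine on histone H3, marks active promoters and is typically laid down over CpG-rich start sites on both sides of a nucleosome-poor gap. Bcl2 encodes the founding anti-apoptotic protein of its family, which holds back mitochondrial cell death. Bcl3 encodes an atypical IkB protein that works in the nucleus with NF-kB proteins. Pim1 encodes a serine/threonine kinase that supports survival and growth, and Myc encodes a transcription factor that drives growth and cell division. Both Pim1 and Myc are textbook targets of STAT proteins in cytokine-stimulated blood cells.

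Promoter sequences were taken from the RefSeq promoter table of GRCm38.p6, in which 3 of the 4 genes were matched by symbol. They are shown because H3K4me3 is typically found at CpG-rich start sites. The bases upstream of the gene are given 5′ to 3′ on the gene's strand, minus for Bcl2 and Bcl3 and plus for Pim1, with CpG dinucleotides in capitals. They were not placed on mm9.
Bcl2: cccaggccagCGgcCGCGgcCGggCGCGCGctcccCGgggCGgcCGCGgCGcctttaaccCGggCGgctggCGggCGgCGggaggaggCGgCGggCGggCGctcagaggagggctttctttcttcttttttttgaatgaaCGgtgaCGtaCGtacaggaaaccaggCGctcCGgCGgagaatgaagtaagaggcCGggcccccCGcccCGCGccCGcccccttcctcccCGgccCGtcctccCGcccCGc
Bcl3: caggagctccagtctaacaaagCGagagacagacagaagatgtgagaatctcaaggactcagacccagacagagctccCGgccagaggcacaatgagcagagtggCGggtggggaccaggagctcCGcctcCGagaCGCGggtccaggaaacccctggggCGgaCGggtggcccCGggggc
Pim1: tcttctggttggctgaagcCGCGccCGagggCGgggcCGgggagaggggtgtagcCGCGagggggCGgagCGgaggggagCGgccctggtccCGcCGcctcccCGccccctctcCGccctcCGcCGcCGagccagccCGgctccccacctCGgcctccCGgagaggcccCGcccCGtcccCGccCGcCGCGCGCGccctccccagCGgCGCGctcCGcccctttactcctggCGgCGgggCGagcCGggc
Bcl2 and Pim1 had CpG-rich promoters, with 36 CpG each in the 250 bases before the start, more than 97.4% of the 32851 promoters in the table. Bcl3 had 19 CpG in its 250 bases, more than 80.3% of promoters, against a median of 6. For Bcl3 the printed part is 181 bases, because the other bases of its window lie within the annotated span of the gene. A second Pim1 entry, whose start lies within the gene, had 4 CpG and is not printed. The element TTCNNNGAA, which reads the same on both strands as a pattern, had 0 matches in these windows of the 3 genes and was present in 7.02% of all promoters. Its narrower form TTCCNGGAA, all matches of which also match TTCNNNGAA, was in 0.913% of all promoters and likewise had 0 matches here. The absence says only that these letters are not within that window.

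H3K4me3 was present at all 4 promoters in both genotypes. The promoter of Bcl3 had 91 wild-type and 56 STAT3-deficient reads and stood apart from the other 3, whose STAT3-deficient counts were the larger. Bcl2 lay on the higher side. Pim1 and Myc lay near no difference with the median of all marked regions set to 0, and on the higher side when scaled by library totals. Phospho-STAT3 sites were called at 22 places of the windows in wild-type cells. Those with the most reads were on the gene side of the Bcl3 promoter, about 10 kb from the start of Pim1 and within the promoter mark of Bcl2. The last of these places was also called by the same rule in the STAT3-deficient H3K4me3 library.

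H3K4me3 regions were runs of 200 bp windows with at least 12 reads in both libraries pooled, and a region with at least 50 pooled reads is called marked. Ratios are STAT3-deficient over wild-type on the log2 scale, with the median of all marked regions set to 0. That scaling removes any change common to all regions. Scaling by library totals instead raises every value by 0.32. A region was said to pass the size rule when it differed at least 2-fold and its exact (Clopper-Pearson) 95% interval excluded equality. Of the 8 regions, 0 passed this rule, which 2.17% of all marked regions passed (1.16% lower, 1.01% higher). The interval lay below 0 in 1 of the 8 regions and above 0 in 1, as it did in 5.69% and 5.83% of all marked regions. By library totals it lay below 0 in 1 and above 0 in 3, the promoters of Bcl2, Pim1 and Myc. The shares of all marked regions on that scaling are not given here.

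**Figure D1:**
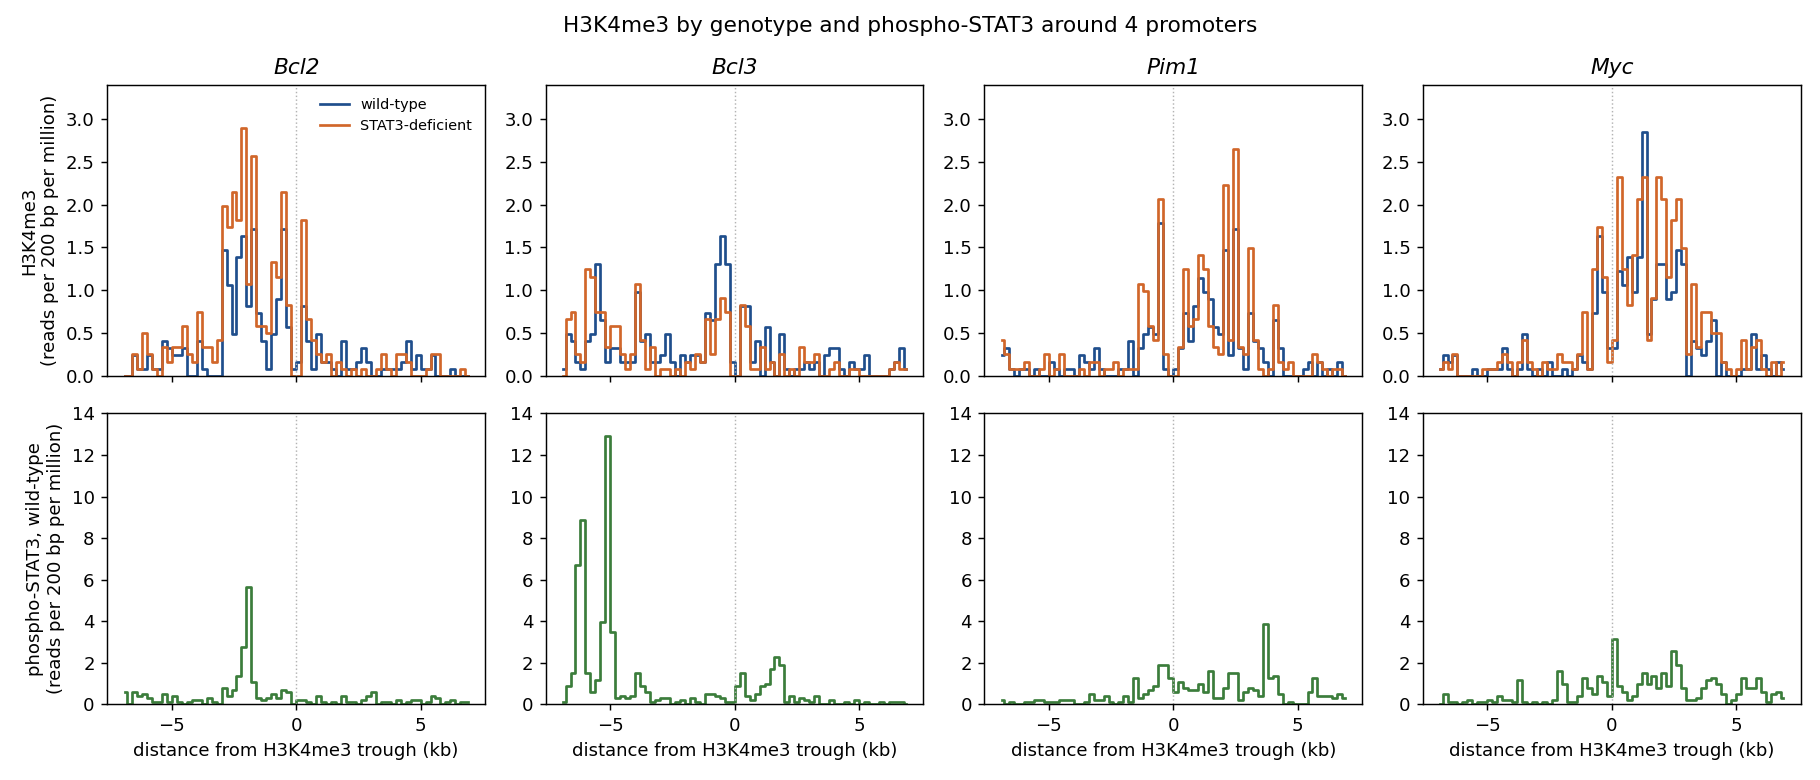
Reads per 200 bp window per 1000000 library reads (vertical axes) at Bcl2, Bcl3, Pim1 and Myc. H3K4me3 of both genotypes is above and wild-type phospho-STAT3 below. Horizontal axes give the distance in kb from the centre of the H3K4me3 trough, with higher coordinates to the right. The trough is the 400 bp of fewest pooled reads between windows of 12 or more, which at Pim1 lies between its 2 regions. Within the Bcl3 promoter region the STAT3-deficient line runs under the wild-type line just left of the trough, where the counts were 69 and 39, but not at the inner region farther left, where they were 49 and 69.

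Bcl3 gave the lowest promoter ratio. Its region, chr7:20406800-20408599, was 1.995-fold lower in the STAT3-deficient library, a log2 ratio of -0.997 (95% interval -1.504 to -0.501). This is just short of the 2-fold limit of the size rule, and only 1.16% of all marked regions had a lower ratio. By library totals the ratio was -0.68 (-1.18 to -0.18), so the interval stayed below 0 under both scalings. With reads left where they align, with region calling at a Poisson p of 1e-12, or with 2 kb on each side of the highest window, Bcl3 passed the size rule, at -1.03, -1.07 and -1.01. On the lower-coordinate side of the trough, which is the side of the gene body for this minus-strand gene, the counts were 69 and 39, a ratio of -1.12 (-1.72 to -0.53). On the upstream side they were 20 and 17, a ratio of -0.53 (-1.55 to 0.48). The gene side thus had the lower ratio, but the intervals of both sides overlap.

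The lower H3K4me3 at Bcl3 was not seen in the other marked region of its window. A second marked region, chr7:20401200-20402799, lies on the gene side of the promoter, and held 49 wild-type and 69 STAT3-deficient reads. Its ratio was 0.20 (-0.35 to 0.76). Relative to the promoter this inner region was 2.28-fold higher in the STAT3-deficient library (exact interval 1.35 to 3.87), a comparison that needs no scaling because both regions come from the same libraries. Outside the regions, the Bcl3 window had 354 reads in wild-type and 317 in STAT3-deficient cells, a ratio of -0.46 (-0.68 to -0.23), and -0.13 (-0.36 to 0.09) by library totals. All reads outside marked regions of the genome gave -0.35 and -0.03 on these scalings. In the GRCm38.p6 table the long noncoding RNA gene Gm16174 overlaps Bcl3, and Cblc is the protein-coding neighbour on the lower-coordinate side.

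Bcl2, the anti-apoptotic gene, had a broad promoter mark with more reads in the STAT3-deficient library. Its promoter region, chr1:108608000-108611599, had 183 reads in wild-type and 288 in STAT3-deficient cells. The ratio was 0.36 (0.09 to 0.63), or 1.28-fold higher, and 0.68 (0.41 to 0.95) by library totals. This is a small difference that is above counting error under both scalings; 87.7% of marked regions had a lower ratio. Below the trough the counts were 165 and 258 and above it 15 and 30, with ratios of 0.35 (0.06 to 0.64) and 0.70 (-0.24 to 1.70). A pair of small regions lay within the window at chr1:108496800-108497399 and chr1:108584200-108584999. They held 27 and 25 wild-type reads and 23 and 36 STAT3-deficient reads, and neither interval left out 0. The 205001 bp of the Bcl2 window outside regions had 1328 reads in wild-type and 1370 in STAT3-deficient cells, a ratio of -0.25 (-0.36 to -0.14). By library totals this turned to 0.07 (-0.04 to 0.18), so its direction depends on the scaling.

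Pim1, the kinase gene, showed no difference in H3K4me3 beyond counting error with the median of marked regions set to 0. The region nearest the stated start site, chr17:29628000-29630799, had 130 wild-type against 165 STAT3-deficient reads and a ratio of 0.05 (-0.29 to 0.39). A separate region on the other side of the start, chr17:29626200-29627199, held 45 and 62 reads, a ratio of 0.17 (-0.41 to 0.75). By library totals the larger region came to 0.37 (0.03 to 0.71), so its interval left out 0 only under that scaling. Of the wild-type H3K4me3 reads in the Pim1 window 7.05% had a mismatch (Wilson interval 4.92 to 10.0), against 3.90% in the library and 5.56% on chromosome 17, which lies inside that interval, and the part of this in the Pim1 values was not tested. In the GRCm38.p6 table the noncoding gene Gm26885 overlaps Pim1. Reads of the Pim1 window outside regions numbered 223 and 252, a ratio of -0.12 (-0.39 to 0.15), and 0.20 (-0.07 to 0.47) by library totals.

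Myc carried the most H3K4me3 reads of the 4 promoters. It showed no difference beyond counting error with the median of marked regions set to 0, but did by library totals. Its region, chr15:61816200-61821199, was 5000 bp long and had more pooled reads than 99.3% of marked regions. There were 289 reads in wild-type and 372 in STAT3-deficient cells, which gave a ratio of 0.07 (-0.16 to 0.29) and 0.39 (0.16 to 0.62) by library totals. Outside the region the Myc window held 219 and 259 reads, a ratio of -0.05 (-0.32 to 0.21), and 0.27 (0.0012 to 0.53) by library totals.

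As levels in reads per kb of region per 1000000 library reads, the 4 promoters ranged from 3.78 to 4.71 in wild-type cells. The levels were 4.14 for Bcl2, 4.12 for Bcl3, 3.78 for Pim1 and 4.71 for Myc. In the STAT3-deficient library the levels were 6.62, 2.58, 4.88 and 6.16 in the same order. Bcl3 was therefore the lowest of the 4 in the STAT3-deficient library but not in the wild-type library. Set directly against each other, the ratio at Bcl3 was 2.55-fold below that at Bcl2 (exact interval 1.72 to 3.82), 2.06-fold below that at Pim1 (1.35 to 3.16) and 2.09-fold below that at Myc (1.43 to 3.08). The other 3 pairs did not differ beyond counting error: Bcl2 over Pim1 was 1.24 (0.913 to 1.68), Bcl2 over Myc 1.22 (0.954 to 1.57) and Pim1 over Myc 0.986 (0.741 to 1.31). These comparisons, chosen after the ratios were seen, do not depend on how the libraries are scaled.

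**Figure D2:**
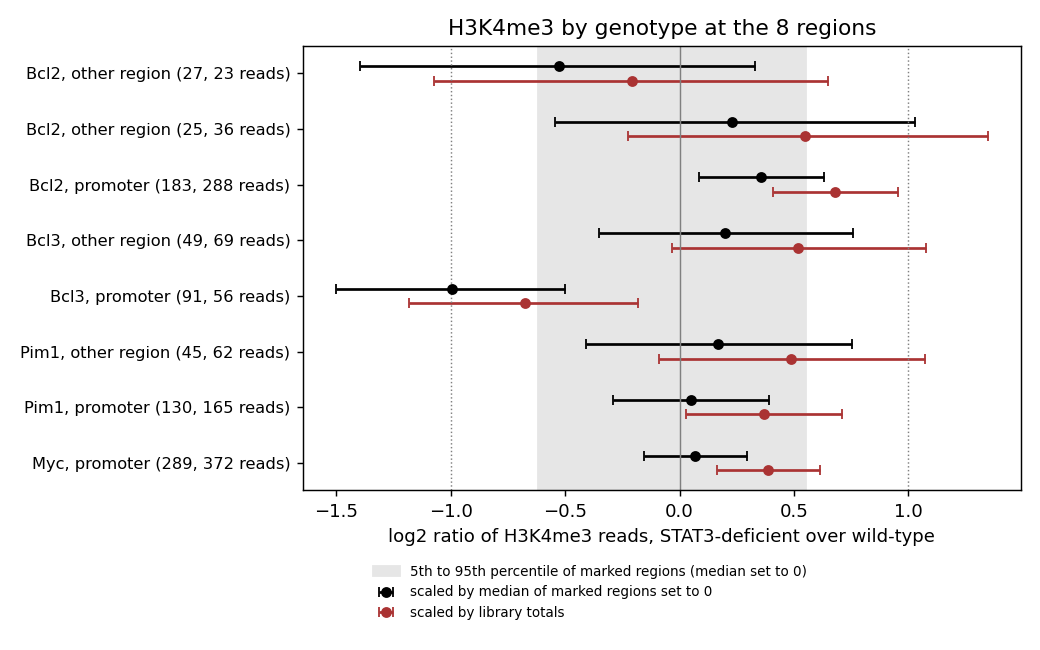
Log2 ratio of H3K4me3 reads, STAT3-deficient over wild-type (horizontal axis), for the 8 marked regions of the 4 windows, with wild-type and STAT3-deficient reads in the labels, exact 95% intervals as bars and both scalings. The grey band spans -0.62 to 0.55, the 5th to 95th percentile of all marked regions, under the main scaling. On that scaling the Bcl3 promoter at -0.997 is the region outside the band. Library totals raise every marked region by 0.32 and the band was not redrawn for them. The values on that scaling, such as 0.68 at the Bcl2 promoter and -0.68 at the Bcl3 promoter, therefore cannot be set against it.

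The H3K4me3 trough of a promoter was taken as the 400 bp with the fewest pooled reads between windows of 12 or more, so that each promoter has one by definition. For Pim1 and Myc it was sought over all regions within 2 kb of the stated start, so its place is not independent of that start. The Pim1 trough lies between its 2 regions and in neither of them. At Pim1 the trough, chr17:29627400-29627799, contained the stated start site and held 1 wild-type and 0 STAT3-deficient reads. At Myc, chr15:61816800-61817199 also contained the stated start and held 8 and 7 reads. The Bcl2 trough, chr1:108610800-108611199, held 3 and 0 reads, and the Bcl3 trough, chr7:20407800-20408199, held 2 and 0. The troughs of Pim1 and Myc were not empty of reads in general, since the phospho-STAT3 library had 19 and 36 reads there. At Bcl2 and Bcl3 it had 2 and 10. The trough, chosen as a measure after the data were seen, is the zero point of the distances below.

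Phospho-STAT3 sites were 200 bp windows, merged where they overlapped, whose read number exceeded the local density of 10 kb (Poisson p under 1e-08, at least 10 reads, both strands). Excess means the reads of the highest window less the number that the local density gives. Sites in the top 25% by excess, at least 26.1 reads, are called strong. Of the 22 sites, 10 were strong (45.5%), against 25% of all sites by definition. The windows held 5.24 sites per 100 kb at Bcl2, 11.1 at Bcl3, 7.5 at Pim1 and 6.67 at Myc, against 1.02 over the genome. These windows were picked around genes, and the genome includes stretches with no gene.

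**Figure D3:**
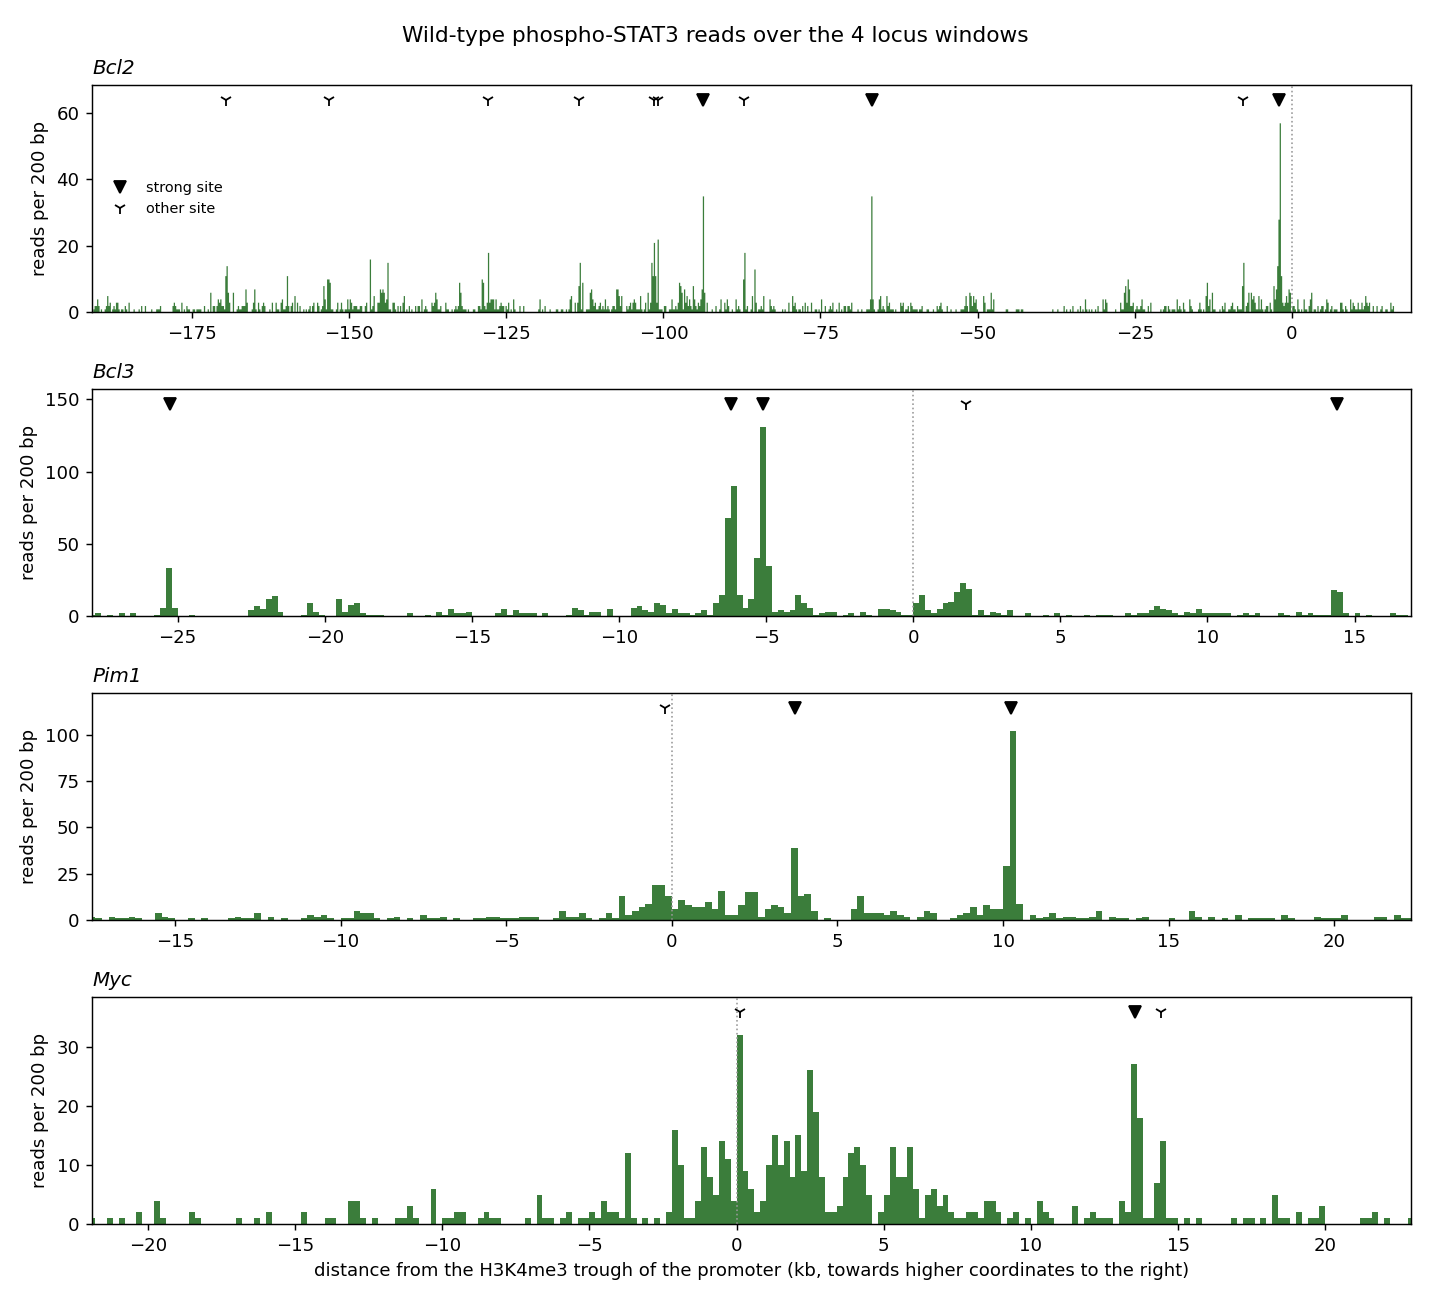
Wild-type phospho-STAT3 reads per 200 bp (vertical axes) over the 4 locus windows against the distance in kb from the H3K4me3 trough (horizontal axes), with filled triangles for strong sites and Y-shaped marks for other sites. The highest bars lie at the sites with 134 reads at Bcl3 and 107 reads at Pim1, and are a little lower than these counts because the bars are fixed windows that do not follow the sites.

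Bcl3 held the pair with the highest counts of the 4 windows. The site chr7:20402600-20403199 had 134 reads in its highest window, 12.1-fold over local density, and ranked 72 of 27061 by excess. Next to it, chr7:20401550-20402099 had 114 reads, 10.4-fold, and ranked 147. They lie 5100 and 6175 bp from the H3K4me3 trough on the gene side, and both overlap the inner H3K4me3 region rather than the promoter region. Closest to the promoter was chr7:20409600-20409999, 1800 bp upstream of the trough, with 29 reads and an excess of 25.5, just under the limit for strong. The remaining Bcl3 sites were strong. They were chr7:20382550-20382949, 25250 bp away on the gene side with 33 reads, and chr7:20422200-20422599, 14400 bp away on the other side with 31 reads. Of the phospho-STAT3 reads in the Bcl3 window 48.4% lay within its 5 sites.

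Pim1 had 3 sites, and the strongest was away from the promoter. The site chr17:29637600-29638099, 10250 bp from the trough, had 107 reads, 20.2-fold over local density, and ranked 158. The H3K4me3 libraries had 0 reads each within it. A site at chr17:29631150-29631499, centred 526 bp beyond the end of the promoter region, had 39 reads and was strong. The third, chr17:29627300-29627499, overlapped the trough that holds the stated start site, with 27 reads at 4.07-fold over a local density that was itself raised. Reads within sites made up 31.0% of the phospho-STAT3 reads of the Pim1 window.

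At Myc phospho-STAT3 reads were spread over the H3K4me3 region rather than gathered in high peaks. The region held 261 of the 641 phospho-STAT3 reads of the window, and the site within it, chr15:61817000-61817199, had 32 reads at 4.42-fold. That site lay 100 bp from the centre of the trough, beside the stated start. As at the Bcl2 promoter site, the calling rule was met there in the STAT3-deficient H3K4me3 library too. A strong site at chr15:61830300-61830799, 13550 bp from the trough, had 33 reads at 14.5-fold, and a weaker one at chr15:61831300-61831549 had 17. In the GRCm38.p6 table Pvt1 is the next gene on the higher-coordinate side of Myc. Against the genome-wide density alone, 13 sites were called in the Myc window in place of 3.

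Bcl2 had 11 sites, which reached up to 169600 bp from the trough on the gene side. The strongest, chr1:108608800-108609299, lay inside the promoter H3K4me3 region 1950 bp from the trough, with 60 reads at 12.9-fold and rank 966. The calling rule was met there in the STAT3-deficient H3K4me3 library too, and no input library was analysed here. Further strong sites at chr1:108543950-108544349 and chr1:108517150-108517549 had 35 reads each, 66850 and 93650 bp from the trough. Next by excess came chr1:108441250-108441549 and chr1:108510000-108510249, with 22 reads each at 10.2-fold and 5.88-fold, and the other 6 had 15 to 21 reads. None of the 11 lay upstream of the promoter region within the window, and 18.5% of the phospho-STAT3 reads in the window lay within them. The window runs from 108420000 to 108630000 and the promoter region from 108608000 to 108611599, so far less of the window lies upstream. The numbers of sites on each side therefore cannot be compared.

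**Figure D4:**
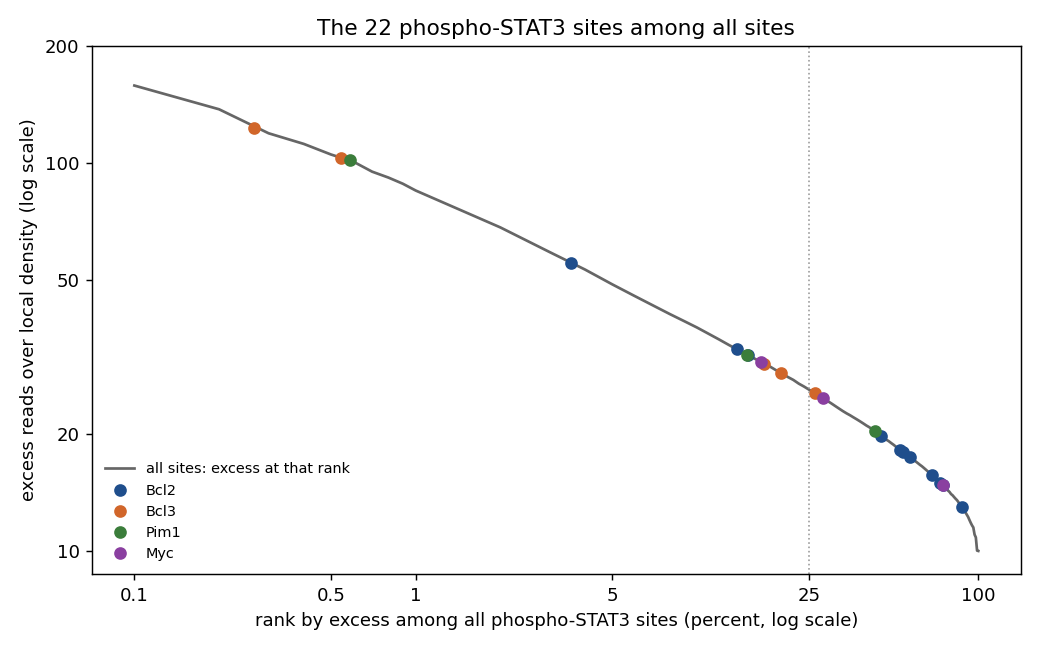
Excess reads over local density (vertical axis, log scale) against rank in percent of all phospho-STAT3 sites (horizontal axis, log scale), with the curve of all 27061 sites and the 22 sites of the 4 windows as points. Of these, 3 lie in the top 1%, 2 from Bcl3 and 1 from Pim1, and those left of the dotted line at 25% are strong.

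Reads of both strands were offset at all 22 sites. The median start of minus-strand reads lay 38 to 150 bp beyond that of plus-strand reads, with a median of 94 bp over sites. Sites were called on reads moved by 75 bp and had to hold both strands, so the calling itself favours such an offset. The offset over all sites of the genome is not given here, and it is no separate check of the sites. In both H3K4me3 libraries the same calling rule was met at 0 of the 22 sites, against 12.9% of all sites. In the STAT3-deficient H3K4me3 library alone it was met at 2, the promoter sites of Bcl2 and Myc. The share of all sites that meet it in that library alone is not given here, so the 2 cannot be set against the genome. Of the 22 sites 4 overlapped a marked region, against 24.4% of all sites. A site lay within 10 kb of 7 of the 8 regions, against 74.6% of all marked regions, and a strong site within 10 kb of 6, against 24.6%. The 4 promoters each had such a strong site. Bcl2 and Myc overlapped a site themselves, and with the inner Bcl3 region this made 3 of the 8 regions, against 52.5%.

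H3K4me3 around the sites had an interval that took in 0 at 21 of the 22 sites. Within 1 kb of the site centre, 8 of the 22 sites had at least 50 pooled H3K4me3 reads, and 0 of these passed the size rule, against 2.63% of all such sites. The interval lay above 0 at 1 of the 8, the Bcl2 promoter site with 119 wild-type and 190 STAT3-deficient reads (0.38, 0.04 to 0.72), and below 0 at 0, against 3.75% and 7.16% of all such sites. At the pair of sites on the gene side of the Bcl3 promoter the counts were 55 and 71 (0.07, -0.46 to 0.61) and 50 and 72 (0.23, -0.31 to 0.78). The stretches within 1 kb of this pair overlap, so these counts share reads and are not independent. By library totals the values of this pair were 0.39 (-0.14 to 0.93) and 0.55 (0.01 to 1.10), and with 500 bp on each side they were 0.85 (0.03 to 1.71) and -0.21 (-0.93 to 0.51). The pair thus showed no difference beyond counting error within 1 kb after scaling, but the interval left 0 out for each of the pair under 1 of these alternatives. The Bcl3 site closest to the promoter lay on the lower side, with 23 and 16 reads (-0.82, -1.84 to 0.16), and its interval fell below 0 with 2 kb on each side, where 55 and 41 reads gave -0.72 (-1.34 to -0.11). The Pim1 and Myc start sites gave 61 and 78 reads (0.06, -0.44 to 0.57) and 110 and 134 reads (-0.01, -0.39 to 0.37). At the 14 sites under 50 pooled reads, that Bcl3 site included, 13 to 40 reads were found within 1 kb and every interval took in 0 at that width.

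Several sites near promoters sat in local dips of H3K4me3, with few inner reads in either genotype. This measure, chosen after the data were seen, compares the 200 bp at the highest window with the flanks out to 500 bp. At the Bcl3 site with 114 reads, the inner part held 1 wild-type and 0 STAT3-deficient reads against 17 and 40 in the flanks, a density 0.0702 of that in the flanks. At the neighbouring Bcl3 site with 134 reads the dip was shallower, with 2 and 6 inner reads against 34 and 30, a density 0.50 of the flanks. At the Pim1 start the inner part held 1 and 1 reads against 29 and 34, and at the Myc start 4 and 5 against 44 and 59. Both of these sites overlap the troughs, which were chosen for their few H3K4me3 reads, so a dip there is in part built in. The dip was shallow at the Bcl2 promoter site, with 13 and 20 against 66 and 100, a density 0.795 of the flanks. Among the sites in marked regions with at least 20 flank reads, the inner density was under the flanks at 4 of 4 in these windows and at 53.3% of 6518 in the genome. With 4 sites, of which the Myc start is 1, this is a description of them and not a difference from the rest.

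**Figure D5:**
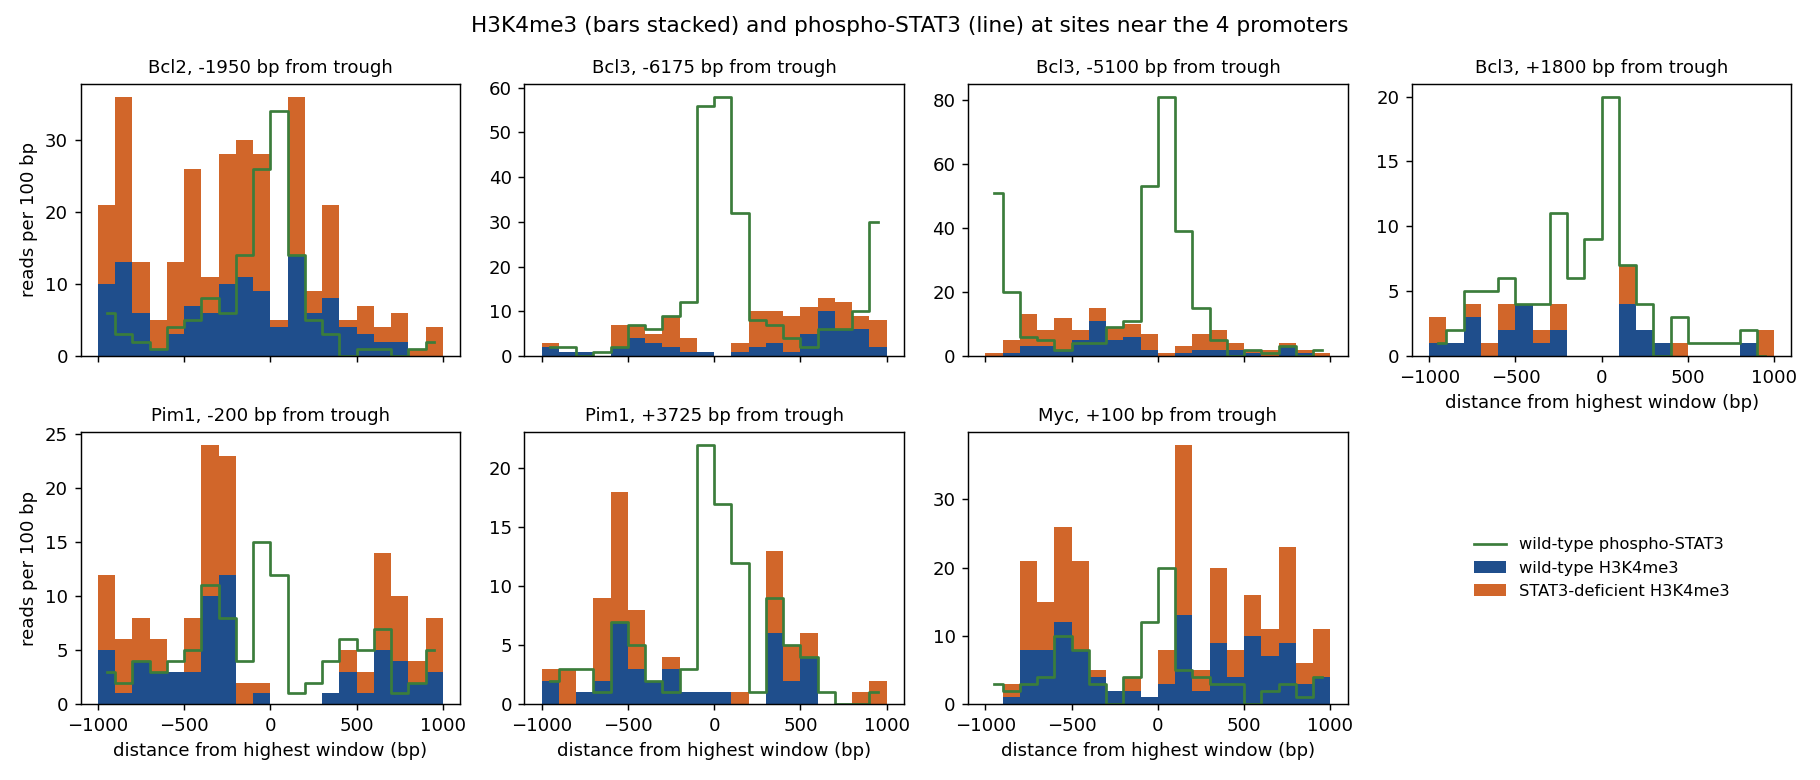
Reads per 100 bp (vertical axes) against the distance in bp from the highest window of 7 phospho-STAT3 sites near the promoters (horizontal axes), with H3K4me3 reads of both genotypes stacked as bars and wild-type phospho-STAT3 reads as a line. At the Bcl3 site with 114 reads and at the Pim1 start, the bars of both genotypes are near 0 where the line is highest.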

How the data were processed

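The deposited files hold aligned reads of 25 bp, 1 per line, with position, strand and a code of matching bases. Per the submitters' processing notes the build was mm9 and SICER was among the tools. The aligner is not given in the sources used here. In the deposited files 0 reads shared both position and strand with another. Libraries were made with 18 PCR cycles and fragments of about 250 bp (adaptors included), per the labels' protocols, which name no molecular identifiers, and reads need not be independent molecules.

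Each read was shifted by 75 bp in its own direction. H3K4me3 regions came from 200 bp windows with at least 12 pooled reads (Poisson p of 1e-05, mappable share 0.8), joined over gaps up to 600 bp, with at least 2 windows. The promoter region of a gene was the one nearest the stated start site, or otherwise the one with the most reads. Promoters, other regions and sites of the 4 windows are all accounted for. Up to 5 sites per window, those of largest excess, are given with their values. The regions and sites of the whole genome were called first and the members' values taken from them. The size rule and the site calling were tested on simulated data, and the calling of regions, choice of promoters, troughs and dips were not. The genes, windows, lists and measures were chosen with earlier results of these data known. A list of related genes (Mcl1, Pim2, Max and others) was not run, since no annotation of mm9 was used here. Python 3.11.15, numpy 2.4.6, scipy 1.17.1, pandas 2.3.3 and matplotlib 3.10.9 were used. Alternatives covered scaling, calling, background, read shift and window size.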

Additional observations from a re-analysis of the deposited data

Results flagged for a closer look

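Apart from the shares given with the Pim1 values, the mismatch code of the reads is used by no comparison above. In the Pim1 window, 28 of 397 wild-type H3K4me3 reads had a mismatch, 7.05% (Wilson 95% interval 4.92 to 10.0). It stood out because the interval lies above the 3.90% of that library over all chromosomes. The shares in the Pim1 window were 4.60% (3.06 to 6.87) in the STAT3-deficient H3K4me3 library and 5.08% (3.69 to 6.95) in the phospho-STAT3 library, and chromosome 17 as a whole had 5.56% in the wild-type H3K4me3 library, 5.98% in the STAT3-deficient one and 6.24% in the phospho-STAT3 one. The 5.56% lies inside the interval of the Pim1 window, so the window did not stand out from its chromosome. In the Bcl2, Bcl3 and Myc windows the shares ran from 3.20% to 4.61%. Its part in the Pim1 counts was not tested.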

How the results depend on the processing

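Leaving out a replicate and a paired fit were not possible. No paired analysis was possible because each group has 1 library. By library totals the promoter ratios of Bcl2 and Myc moved out of their main intervals to 0.68 and 0.39, while Bcl3 stayed below 0. When STAT3-deficient reads alone were used to call regions, the Bcl3 value became 0.14 (-0.45 to 0.73), because the region with the most reads was then the inner one. That calling still found a shorter promoter region, with 48 wild-type and 30 STAT3-deficient reads. With the pooled region kept and only this scaling used, a choice added after seeing the data, Bcl3 was -1.07. Scaled instead by regions called on wild-type reads alone, the pooled region gave -0.93. The other 33 of 36 values under alternatives for the 4 promoters moved by less than counting error. Pim1 turned slightly below 0 in some of them, with 0 inside the interval. The 36 values include the pooled region kept under both scalings just named, for every promoter, all added after seeing the data. Those keep the counts of the main values and shift all ratios alike.

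Of all marked regions 111 were higher and 127 lower by the size rule. The counts were 319 and 54 by library totals, 202 and 369 with a minimum of 20 reads, and 52 and 42 with a minimum of 100. With that last minimum 1 region of the 4 windows, the Bcl3 promoter, passed, whose main value of -0.997 lay just short of the limit. The number of regions that meet each of these other minimums is not given here, so their counts cannot be read as shares. The number of sites over the genome went from 27061 to 42985 at p under 1e-05, 15382 at 1e-12 and 50484 with the genome-wide density alone. At Bcl2 the 11 sites became 21, 5 and 20, and 7 without the read shift. At Bcl3 and Pim1 the genome-wide density gave 12 and 10 in place of 5 and 3. At Myc the 3 sites became 1 at 1e-12, 13 with the genome-wide density and 1 without the shift. The H3K4me3 ratio at sites moved in 4 of 76 cases. With 500 bp on each side it was -1.56 (-3.42 to 0.05) and -2.17 (-4.65 to -0.25) at the Bcl2 sites centred on 108441400 and 108457775, from 12 and 5 and from 11 and 3 reads, and 0.85 (0.03 to 1.71) at the Bcl3 site centred on 20401825. With background subtracted it was 1.51 at the Bcl2 site centred on 108510125. At the Bcl2 site centred on 108497650 the interval also fell below 0 with 500 bp, at -0.86 (-1.73 to -0.01). The cause was not tested.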
